A study of Homo sapiens with 20 samples.

Results

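Cancer-testis antigens are proteins whose genes are normally read in the germ cells of the testis and kept silent by promoter DNA methylation in most other adult tissues. Tumors, myeloma among them, can switch these genes on again, which has made MAGE-A3, NY-ESO-1 and related proteins targets of vaccines and engineered T cells. Many of the genes lie in tandem arrays of young copies on the X chromosome, and their products have few known biochemical roles beyond the MAGE proteins, which bind RING ubiquitin ligases and steer them to substrates.

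The cancer-testis antigen families of this RNA-seq data set were taken as every gene whose symbol starts with MAGEA, MAGEB, MAGEC, GAGE, XAGE, PAGE, CT45A, CT47A, CTAG or SPANX, or is SSX with a number. This rule found 98 of the 18305 genes listed. The GAGE family had 20 members, MAGEA 14, CT47A 12, MAGEB 9, SSX 8, CT45A 7, SPANX 7, PAGE 5, XAGE 4, MAGEC 3 and CTAG 3. The CTAG prefix also caught 6 CTAGE genes, which are not relatives of CTAG and stayed under 1 FPKM in every library. Of the 89 members matched to the RefSeq annotation of GRCh38.p14, 83 are on the X chromosome and the other 6 are the CTAGE genes. FPKM, the unit of all levels below, counts fragments relative to transcript length and to the size of the library, so levels of different genes can be compared per length.

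The study asked how myeloma cells change when they become resistant to proteasome inhibitors. The 4 parental (WT) lines were ARH-77, AMO1, RPMI-8226 and L363, each set beside bortezomib-resistant (BtzR) derivatives. AMO1 and L363 also had derivatives resistant to carfilzomib (CfzR). Every one of the 10 groups had 2 biological replicates. AMO1, L363 and RPMI-8226 are established lines of malignant plasma cells, while ARH-77 is labelled a myeloma line but described by the study as B-lymphoblastoid. The resistant lines had been selected in culture and were grown in 90 nM of their drug, and WT cells were grown without drug, so selection and the presence of the drug cannot be told apart.

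Before the results, some features of the libraries bear on them. Replicates correlated at 0.986 to 0.998 (Pearson's r across genes of log2(FPKM + 1)). The 2 libraries labelled AMO1 CfzR correlated with the 6 L363 libraries at 0.986 to 0.992 and with the other 4 AMO1 libraries at 0.878 to 0.883, so they are called the libraries labelled AMO1 CfzR and are compared with both WT lines. The 10 B cell markers summed to 678 to 903 FPKM in the 4 ARH-77 libraries, in all of which MS4A1 and PAX5 were at 33.6 FPKM or more, and to 6.02 to 55.6 FPKM in the other 16. The 10 plasma cell markers summed to 365 to 400 FPKM in ARH-77 and to 852 to 4183 FPKM in the other lines. All 10 reached a mean of 1 FPKM in ARH-77 WT and AMO1 WT, and 9 did in L363 WT and RPMI-8226 WT. Among them PRDM1, a transcription factor of plasma cells, was at 0.41 to 1.67 FPKM in ARH-77, against 11.3 to 41.9 FPKM in the other lines. Testis germ cell markers were nearly absent. The 10 of 15 found in the table summed to 0.49 to 3.47 FPKM per library, and DDX4 and DAZL, which define germ cells, did not pass 0.36 FPKM in any library. In bulk RNA a lower level in each cell and a smaller share of expressing cells cannot be told apart.

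Most of the 98 members were low. In 48 the value was under 1 FPKM in every library. A group mean of 1 FPKM in at least 1 group was reached by 45, which were tested, and of these 31 reached a group mean of 10 FPKM and 9 a group mean of 100 FPKM. No CT47A gene passed 0.01 FPKM. MAGEA4, a common cancer-testis antigen of solid tumors, peaked at 0.6 FPKM, MAGEC2 at 0.41 FPKM, PAGE2 at 0.46 FPKM and GAGE1 at 0.13 FPKM. In AMO1 WT 28 members reached a mean of 1 FPKM, in RPMI-8226 WT 22, in L363 WT 14 and in ARH-77 WT 4. Only MAGEA6 reached it in all 4 WT lines, 5 members (MAGEA1, MAGEA3, MAGEA9B, MAGEA12 and CTAG2) reached it in 3 lines, 12 in 2 lines and 25 in a single line. Levels of 42 of the 45 differed between the WT lines (limma's moderated F test, Benjamini-Hochberg adjusted p under 0.05), as did 92.6% of all 13089 genes tested, so the count itself sets these genes little apart.

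**Figure D1:**
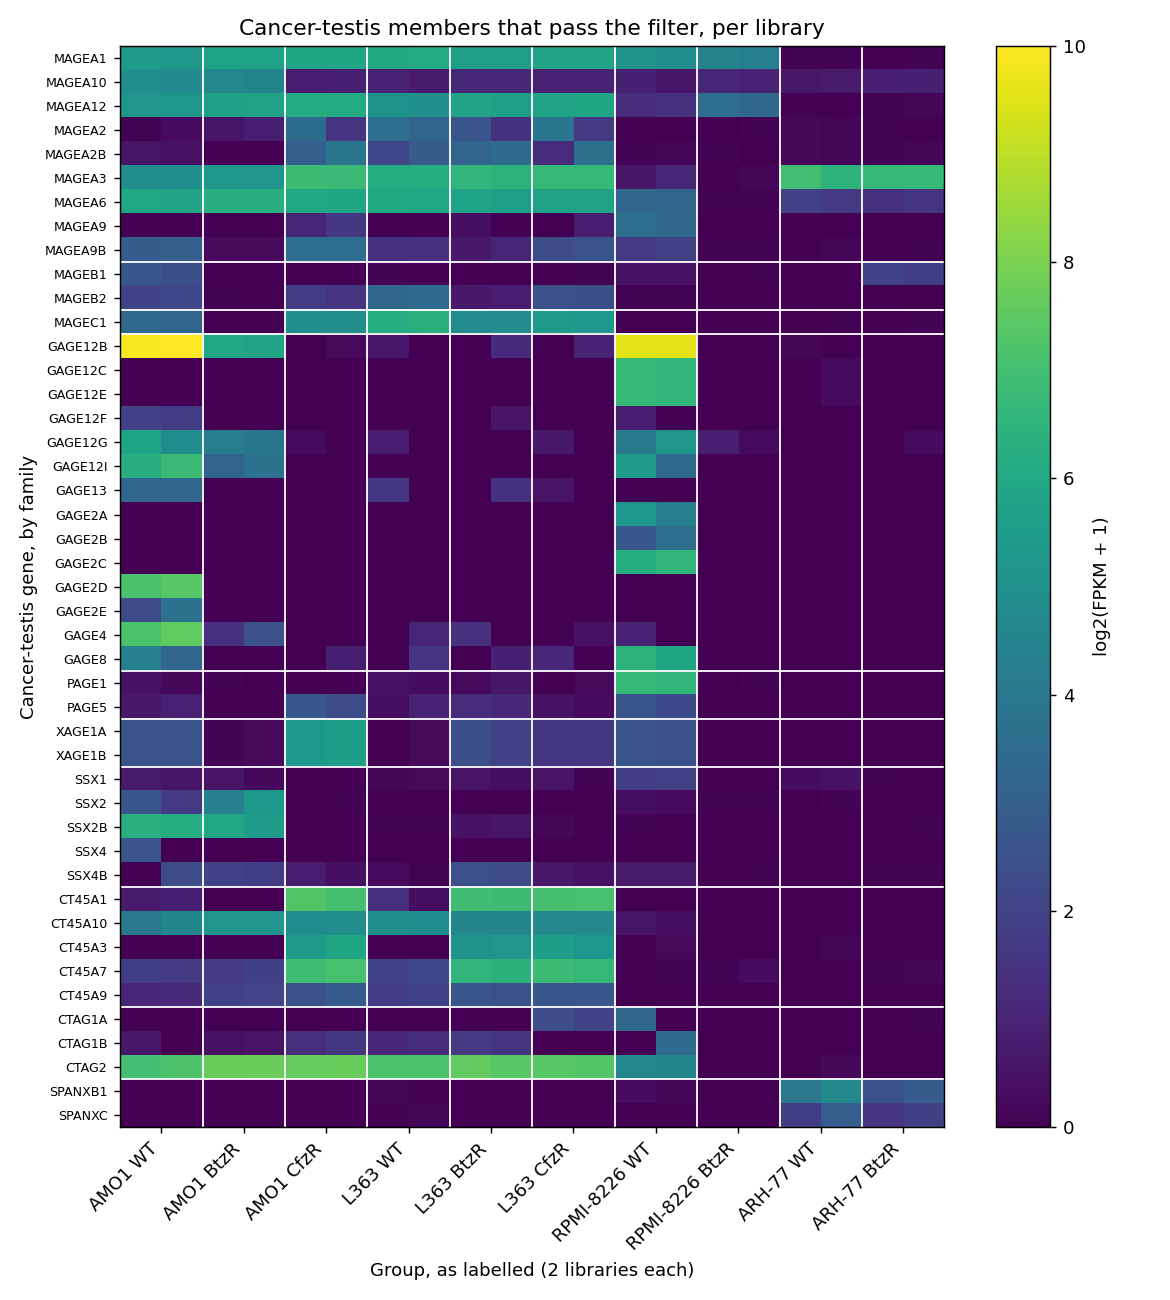
Color gives log2(FPKM + 1) of each of the 45 members tested (vertical axis, ordered by family) in each of the 20 libraries (horizontal axis, 2 per group). GAGE12B reached 1078.17 FPKM in AMO1 WT and 770.84 FPKM in RPMI-8226 WT, the GAGE block is dark in L363 and ARH-77, and CT45A1, CT45A3 and CT45A7 are bright in L363 BtzR, L363 CfzR and the libraries labelled AMO1 CfzR.

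Each resistant group was then compared with its WT line on log2(FPKM + 1). A gene is said to be called, or to have risen or fallen, where the adjusted p of limma's moderated test over all 13089 genes was under 0.05 and the absolute log2-fold change was at least 1. This scale understates the change of low genes, and where a group is listed at 0 the log2-fold change depends on the added 1 and no fold is given. The SE and p rest on a spread pooled over all 10 groups. For members at or near 0 in most groups, they draw mainly on groups with little spread. They then do not measure the spread of the 2 groups compared. The 2 AMO1 WT values of GAGE2D, for instance, differ by 0.29 (log2), beside an SE of 0.08. A member that passed the low-value filter only through the group in which it was high had to differ from the other groups, so the counts below describe these genes and are no evidence about the families. In all, 17 members were called in AMO1 BtzR (16 lower and 1 higher), 8 in L363 BtzR (2 lower and 6 higher), 7 in L363 CfzR (all higher), 21 in RPMI-8226 BtzR (20 lower and 1 higher) and 2 in ARH-77 BtzR (1 lower and 1 higher). Over all genes tested, lower calls made up 4.57% in AMO1 BtzR, 1.05% in L363 BtzR, 0.825% in L363 CfzR, 7.92% in RPMI-8226 BtzR and 0.649% in ARH-77 BtzR. Higher calls made up 4.61%, 1.02%, 1.11%, 5.91% and 0.955% of all genes in the same order. The median log2-fold change of the 45 members was -0.24 in AMO1 BtzR and -0.64 in RPMI-8226 BtzR, beside -0.0017 and 0.052 for all genes tested, and it was 0 in L363 BtzR, L363 CfzR and ARH-77 BtzR.

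**Figure D2:**
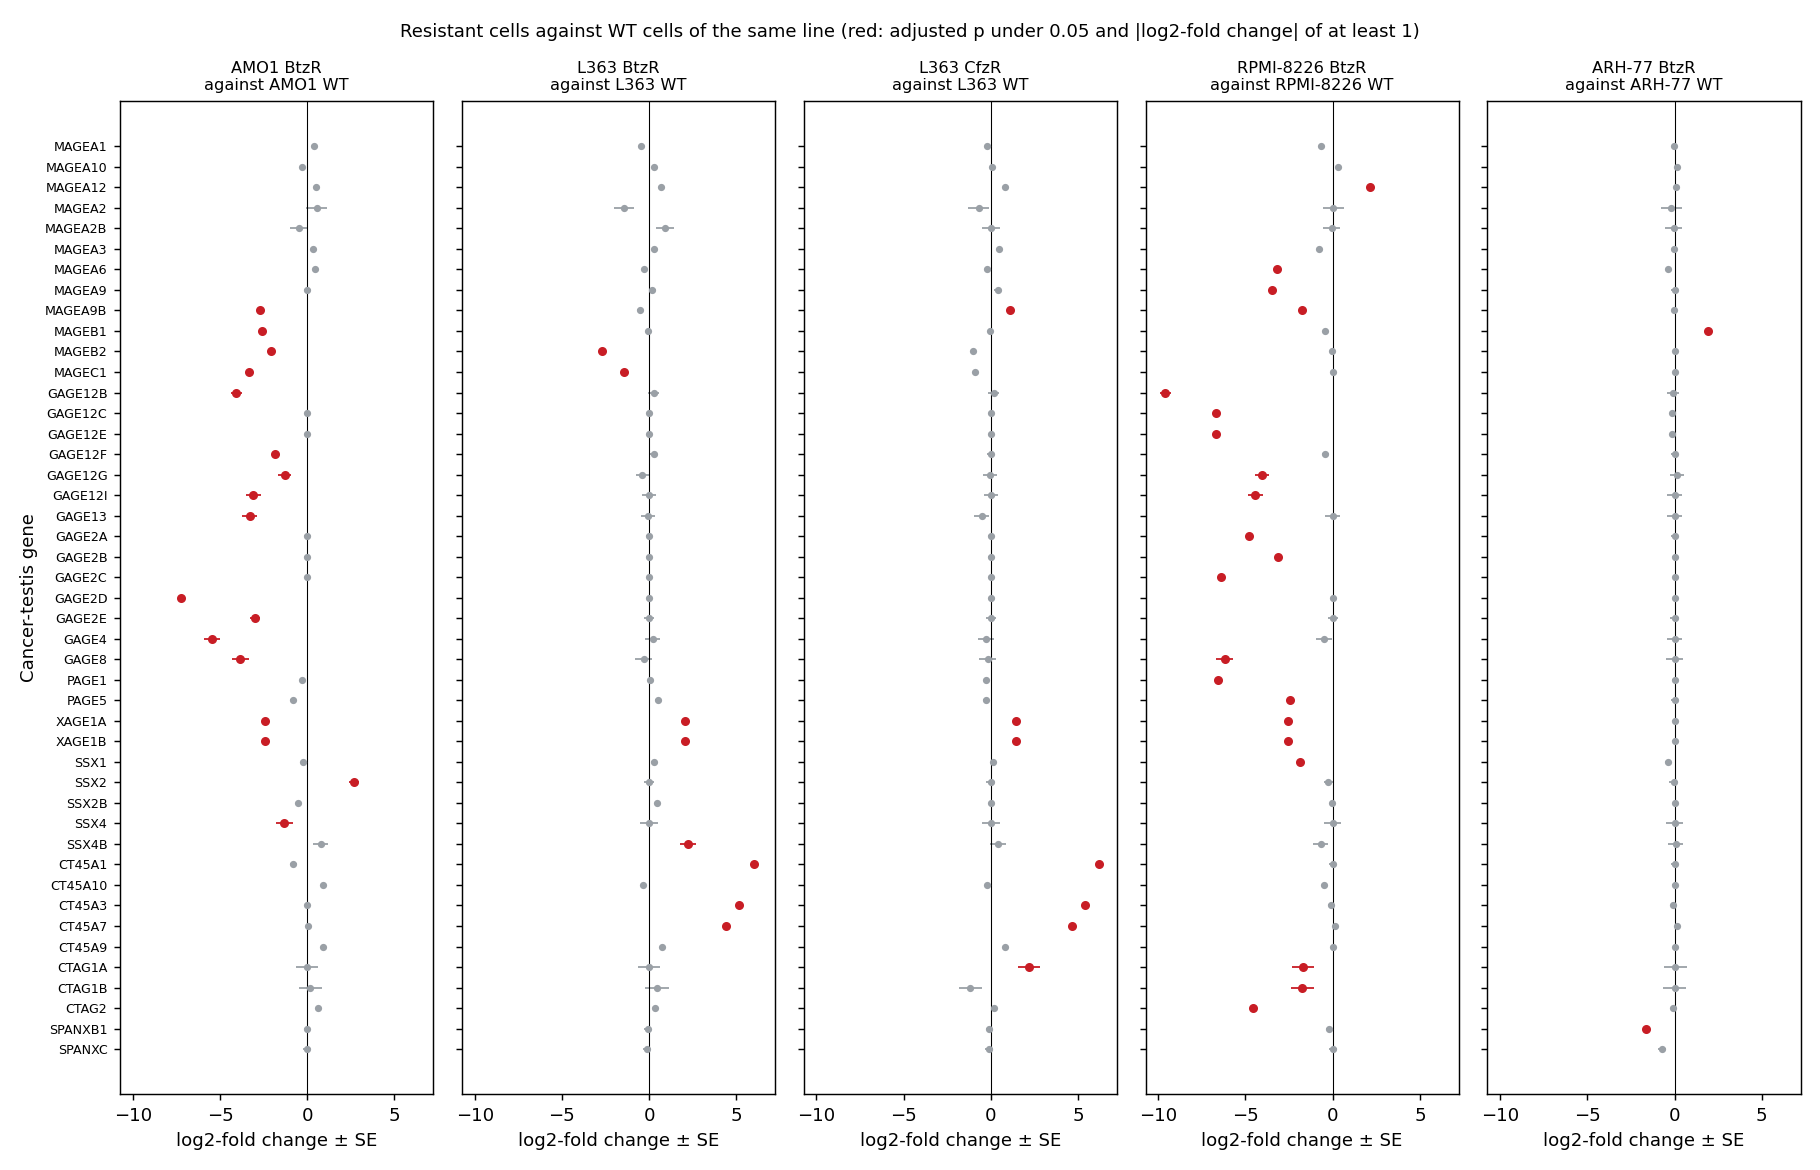
Points give the log2-fold change of each of the 45 members in 5 comparisons of resistant with WT cells, with bars of 1 standard error from the limma fit, red where the member was called. Most red points lie left of 0 in AMO1 BtzR and RPMI-8226 BtzR and right of 0 in both L363 comparisons, which share the same 2 WT libraries.

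The GAGE genes, a tandem array that encodes small acidic proteins of uncertain function, made up most of the summed cancer-testis FPKM of AMO1 WT and RPMI-8226 WT. Summed over the 20 genes, GAGE stood at 1403.75 and 1609.47 FPKM in AMO1 WT and at 91.3 and 87.1 FPKM in AMO1 BtzR, 16.9-fold lower. In RPMI-8226 the sum was 1242.95 and 1192.38 FPKM in WT cells and 0.85 and 0.27 FPKM in BtzR cells. The groups did not overlap in either line, and the array was reduced but still read in AMO1 BtzR and nearly unread in RPMI-8226 BtzR. In L363 and ARH-77 the sum stayed at or under 4.31 FPKM in every library.

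GAGE12B carried the largest share of the summed FPKM. It was at 953.59 and 1078.17 FPKM in AMO1 WT, 75th of all listed genes by mean level, and at 63.6 and 56.5 FPKM in AMO1 BtzR, 16.9-fold lower (log2-fold change -4.06 ± 0.32 SE, adjusted p = 1.41e-07). In RPMI-8226 WT it was at 770.84 and 765.94 FPKM, and it was listed at 0 in both BtzR libraries (-9.59 ± 0.32, adjusted p = 3.38e-12). Other copies marked one line or the other. GAGE2D was at 138 and 169 FPKM and GAGE4 at 145 and 189.8 FPKM in AMO1 WT. In AMO1 BtzR GAGE2D was listed at 0 in both libraries (-7.26 ± 0.08, adjusted p = 5.72e-17) and GAGE4 fell to 1.66 and 4.55 FPKM, 53.9-fold lower (adjusted p = 2.13e-07). Both genes were at 0.99 FPKM or less in RPMI-8226. Conversely GAGE12C and GAGE12E, whose values are identical in all 20 libraries, were at 103 and 98.1 FPKM in RPMI-8226 WT, GAGE2C at 72.1 and 94.9 FPKM and GAGE2A at 37.2 and 18.5 FPKM, while all 4 were listed at 0 in every AMO1 library and in RPMI-8226 BtzR. Of the 14 GAGE genes tested, 9 fell in AMO1 BtzR and 9 in RPMI-8226 BtzR.

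These copies share most of their sequence. In the GENCODE transcripts, 88.1% of the 100-base windows of the median GAGE gene (of 12 with a transcript) also occur in another cancer-testis member, and all 18 windows of the GAGE12B transcript do. Which copy a library is credited with is therefore uncertain, and the family sum is the firmer value. The GAGE12B transcript is also short, with 18 windows beside 428 for GAGE12C, and FPKM divides by length. If the deposited values rest on a transcript this short, the level and rank of GAGE12B and the GAGE sum may be inflated, which was not tested. GAGE12I, for instance, was at 42.7 and 9.64 FPKM and GAGE12G at 15.6 and 36.2 FPKM in the same 2 RPMI-8226 WT libraries. The RefSeq windows around the start sites, which reach from 250 bases before to 50 bases after the start, are letter for letter the same in 7 GAGE genes (GAGE1, GAGE2A, GAGE12C, GAGE12E, GAGE12F, GAGE12H and GAGE12J), and that of GAGE12B matches GAGE12C at 283 of 284 bases in the best placement without gaps. The 250 bases before the start of GAGE12C are shown for this reason, on the plus strand of GRCh38.p14 at chrX:49531927-49532176, with the 8 CG dinucleotides, the letters that DNA methylation can mark, in capitals:
GAGE12C: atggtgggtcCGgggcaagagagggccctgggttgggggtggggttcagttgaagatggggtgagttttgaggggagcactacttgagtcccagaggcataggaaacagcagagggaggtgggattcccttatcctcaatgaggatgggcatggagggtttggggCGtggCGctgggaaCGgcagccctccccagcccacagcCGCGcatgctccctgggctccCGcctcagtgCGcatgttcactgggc

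The 10 genes tested on either side of the array held 1 or fewer lower calls in either line. Before the array there was 1 higher and 1 lower call in AMO1 BtzR and 1 higher call in RPMI-8226 BtzR, and after it 1 lower call in AMO1 BtzR and 2 higher and 1 lower in RPMI-8226 BtzR. Their median log2-fold changes were 0.34 and 0.11 in AMO1 BtzR and 0.38 and 0.16 in RPMI-8226 BtzR, before and after the array.

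**Figure D3:**
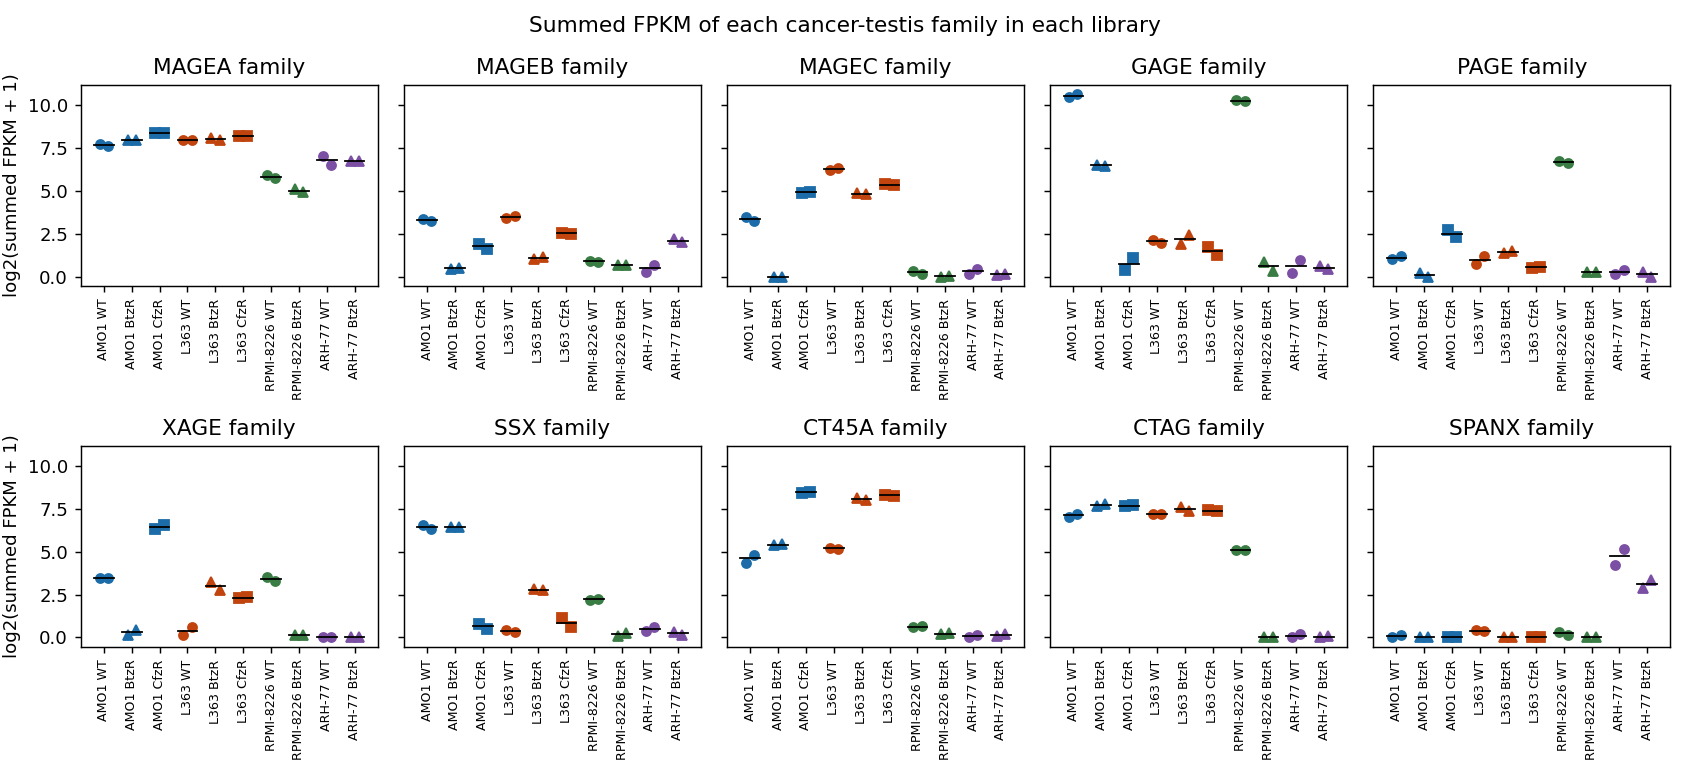
Each panel plots log2(summed FPKM + 1) of a family in every library (circles WT, triangles BtzR, squares CfzR, with AMO1 blue, L363 orange, RPMI-8226 green and ARH-77 purple, and a black line at the group mean). GAGE is lower in AMO1 BtzR and RPMI-8226 BtzR, CT45A is higher in both resistant L363 groups, and SPANX is at 6.54 FPKM or more in ARH-77 and at 0.33 FPKM or less elsewhere.

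RPMI-8226 BtzR held little of the cancer-testis RNA of its WT line. The 98 members summed to 1459.21 and 1389.97 FPKM in WT cells and to 36.1 and 32.0 FPKM in BtzR cells. Of the 12 members at or above 10 FPKM in WT cells, 11 were under 1 FPKM in BtzR cells, and only 3 members kept or reached a mean of 1 FPKM. Most of the 11 are GAGE copies that can share reads, with identical values for GAGE12C and GAGE12E, so they are not separate results. The share of all genes with such a drop is not given here, so the count only describes these members. PAGE1, of the PAGE family of small disordered proteins, was at 101 and 92.7 FPKM in WT cells and at 0 and 0.08 FPKM in BtzR cells (log2-fold change -6.55 ± 0.12, adjusted p = 5.59e-15). CTAG2, which encodes LAGE-1, was at 23.6 and 22.8 FPKM in WT cells and listed at 0 in both BtzR libraries (-4.60 ± 0.09, adjusted p = 1.09e-14). MAGEA6 went from 8.74 and 8.24 FPKM to 0.03 and 0.05 FPKM (-3.19 ± 0.09, adjusted p = 4.48e-13), and MAGEA9, XAGE1A, XAGE1B, PAGE5 and SSX1 fell to 0 FPKM in both BtzR libraries from means of 10.1, 4.81, 4.81, 4.59 and 2.68 FPKM.

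Some MAGEA genes were not called lower in RPMI-8226 BtzR. MAGEA1 was at 34.6 and 28.7 FPKM in WT cells and at 21.0 and 18.7 FPKM in BtzR cells, 1.59-fold lower with no overlap. Its log2-fold change of -0.64 ± 0.09 (adjusted p = 4.26e-05) is short of the threshold of 1. MAGEA12 rose from 1.41 and 1.69 FPKM to 10.9 and 9.17 FPKM, 6.48-fold (adjusted p = 5.59e-11). CSAG1, a cancer-testis gene that lies among the MAGEA genes, rose from 5.52 and 5.54 FPKM to 31.2 and 27.4 FPKM (2.21 ± 0.08, adjusted p = 6.36e-12). CSAG3, which also lies among them, fell from 38.4 and 49.6 FPKM to 1.72 and 1.55 FPKM (-4.08 ± 0.15, adjusted p = 8.30e-12). Members of the same cluster thus differed in direction in the same libraries.

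The proteins of MAGEA3 and MAGEA6 bind the ubiquitin ligase TRIM28. Their RefSeq windows are identical at 300 of 300 bases, with MAGEA3 on the plus strand of GRCh38.p14, where the 250 bases before its start are chrX:152698544-152698793, and MAGEA6 on the minus strand. In spite of these shared letters their levels differed by line. MAGEA3 was at 125 and 88.1 FPKM in ARH-77 WT and at 104 and 103 FPKM in ARH-77 BtzR, where MAGEA6 was at 1.62 to 2.86 FPKM. In RPMI-8226 WT the order was the other way around, with MAGEA6 at 8.74 and 8.24 FPKM and MAGEA3 at 0.54 and 1.08 FPKM. In AMO1 WT MAGEA3 was at 29.2 FPKM in both libraries and MAGEA6 at 61.1 and 55.6 FPKM, and in L363 WT MAGEA3 stood at 72.7 and 72.9 FPKM and MAGEA6 at 65.6 and 62.4 FPKM. Of the 100-base windows of MAGEA3, 34.9% also occur in another member, and of its 50-base windows 56.5% do. How much of that transcript is its own thus depends on the window length, and reads may pass between MAGEA3 and MAGEA6. The stretches of MAGEA3 and of MAGEA12, which rose in RPMI-8226 BtzR, are shown to set a shared start region beside a distinct one, with each CG in capitals. MAGEA12, on the plus strand, has 2 RefSeq starts, of which the upstream one is shown, at chrX:152733507-152733756:
MAGEA3 (identical in MAGEA6): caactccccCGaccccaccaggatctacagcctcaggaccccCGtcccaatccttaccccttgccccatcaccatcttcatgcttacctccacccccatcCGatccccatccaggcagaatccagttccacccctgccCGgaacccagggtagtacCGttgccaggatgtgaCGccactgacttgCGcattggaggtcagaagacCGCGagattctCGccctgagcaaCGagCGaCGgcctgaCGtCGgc
MAGEA12: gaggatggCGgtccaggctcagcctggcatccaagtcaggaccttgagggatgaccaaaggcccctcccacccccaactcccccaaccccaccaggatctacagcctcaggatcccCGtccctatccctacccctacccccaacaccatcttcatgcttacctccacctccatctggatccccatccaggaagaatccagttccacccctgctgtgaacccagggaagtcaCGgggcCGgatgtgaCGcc
The MAGEA3 stretch holds 15 CG and that of MAGEA12 holds 5. Counted over the full windows, MAGEA3 has 19 CG and MAGEA12 has 9 at the start shown and 15 at its other start, so the contrast depends on which start is read. In the best placement without gaps, the full windows of MAGEA12 and MAGEA3 share 175 of 226 bases, 77.4%. The ETS-type motif CCGGAA, searched on both strands, occurs once in the MAGEA3 stretch and not in that of MAGEA12, and 17.2% of all 35116 RefSeq windows hold it. The SP1-type motif GGGCGG, which does not contain the first motif and is present in 44.95% of all windows, is in neither.

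The MAGEA sum was 1.65-fold higher in the libraries labelled AMO1 CfzR than in AMO1 WT and 1.31-fold higher than in L363 WT. Against its own WT line it was 1.23-fold higher in AMO1 BtzR, 1.03-fold higher in L363 BtzR, 1.15-fold higher in L363 CfzR, 1.81-fold lower in RPMI-8226 BtzR and 1.03-fold lower in ARH-77 BtzR, with overlapping groups in L363 BtzR and ARH-77 BtzR. MAGEA1, MAGEA3, MAGEA6 and MAGEA12 were not called in AMO1 BtzR, L363 BtzR or L363 CfzR, with log2-fold changes from -0.44 to 0.82. MAGEA10 marked AMO1. It was at 30.6 and 26.4 FPKM in AMO1 WT and at 24.7 and 21.6 FPKM in AMO1 BtzR, and at 1.22 FPKM or less in every other library. The libraries labelled AMO1 CfzR held 0.76 and 0.83 FPKM, near the 0.98 and 0.67 FPKM of L363 WT. MAGEA9B, whose copy MAGEA9 shares its whole window, was at 6.36 and 7.24 FPKM in AMO1 WT and at 0.18 FPKM in both AMO1 BtzR libraries, 37.8-fold lower (adjusted p = 3.35e-10). In L363 CfzR it rose 2.79-fold, from 1.67 and 1.6 FPKM to 4.11 and 5.01 FPKM (1.07 ± 0.12, adjusted p = 2.98e-05), a value just over the threshold that slipped to 0.96 without L363 CfzR replicate 2.

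Of 9 MAGEB and 3 MAGEC genes, MAGEB1, MAGEB2 and MAGEC1 were tested, and none of the 3 was called in RPMI-8226 BtzR. MAGEC1, which encodes the myeloma antigen CT7, was at 10.0 and 8.34 FPKM in AMO1 WT and listed at 0 in both AMO1 BtzR libraries (-3.34 ± 0.09, adjusted p = 1.83e-12). In L363 WT it was the second highest member, at 72.2 and 80.7 FPKM, and it fell 2.79-fold to 27.6 and 27.1 FPKM in L363 BtzR (-1.45 ± 0.09, adjusted p = 5.48e-08). The L363 CfzR libraries held 41.6 and 39.0 FPKM, with a log2-fold change of -0.91 ± 0.09 (adjusted p = 9.13e-06) under the threshold of 1. All 4 resistant L363 libraries lay below both WT libraries. RPMI-8226 and ARH-77 had 0.07 FPKM or less. The 10 genes tested before the MAGEC genes on the X chromosome were also lower, with median log2-fold changes of -0.71 in L363 BtzR and -0.53 in L363 CfzR. They are the same 10 genes that follow the CT45A array, described below, and not a separate set. The 10 after the MAGEC genes had medians of -0.09 and -0.03. None of these neighbors was called in L363, and their relation to the fall of MAGEC1 was not tested. MAGEB2 followed the same direction as MAGEC1. It was at 9.24 and 10.2 FPKM in L363 WT and at 0.62 and 0.73 FPKM in L363 BtzR, 14.4-fold lower (adjusted p = 2.36e-11), and it fell in AMO1 BtzR from 3.01 and 3.43 FPKM to 0.03 and 0 FPKM (-2.05 ± 0.08, adjusted p = 1.09e-10). MAGEB1 differed in direction between lines. It was at 5.66 and 4.34 FPKM in AMO1 WT and listed at 0 in both AMO1 BtzR libraries (-2.58 ± 0.09, adjusted p = 1.69e-11), while in ARH-77 it was listed at 0 in both WT libraries and at 2.99 and 2.6 FPKM in BtzR cells (1.92 ± 0.09, adjusted p = 4.41e-09).

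The CT45A genes, a tandem array that encodes nuclear proteins, held the largest gains. CT45A1 was at 1.55 and 0.3 FPKM in L363 WT, at 121 and 114 FPKM in L363 BtzR and at 132 and 135 FPKM in L363 CfzR, 127-fold and 144-fold higher (log2-fold changes 6.02 ± 0.20 and 6.20 ± 0.20, adjusted p = 4.10e-11 and 4.04e-11). The fold depends on the low WT values, and against WT replicate 1 or 2 alone it is 75.8-fold or 391.5-fold in BtzR cells and 85.9-fold or 443.9-fold in CfzR cells. CT45A3 was listed at 0 in both L363 WT libraries, at 34.0 and 35.9 FPKM in BtzR cells and at 46.8 and 37.4 FPKM in CfzR cells. CT45A7 went from 3.07 and 3.49 FPKM to 95.8 and 84.7 FPKM in BtzR cells and to 113 and 99.9 FPKM in CfzR cells, 27.5-fold and 32.5-fold higher (adjusted p = 7.57e-12 and 2.72e-12). Both comparisons use the same WT libraries, so they are not independent of each other.

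The other expressed genes of the array were not called. CT45A10 was at 29.8 and 28.1 FPKM in L363 WT, at 22.1 and 23.4 FPKM in BtzR cells and at 24.9 and 25.4 FPKM in CfzR cells (log2-fold changes -0.33 ± 0.13 and -0.20 ± 0.13, adjusted p = 0.132 and 0.526). CT45A9 was at 2.52 and 2.78 FPKM in WT cells and at 4.79 to 5.51 FPKM in the 4 resistant libraries, log2-fold changes of 0.73 and 0.81 that are under the threshold of 1 (adjusted p = 0.000145 and 6.05e-05), with no overlap. In AMO1 BtzR no CT45A gene was called. CT45A10 was at 15.2 and 22.9 FPKM in AMO1 WT and at 36.2 FPKM in both BtzR libraries (0.92 ± 0.13), and CT45A1 was at 0.67 and 0.83 FPKM in WT and listed at 0 in both BtzR libraries. The array was close to unread in RPMI-8226 and ARH-77, with family sums of 0.56 FPKM or less.

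**Figure D4:**
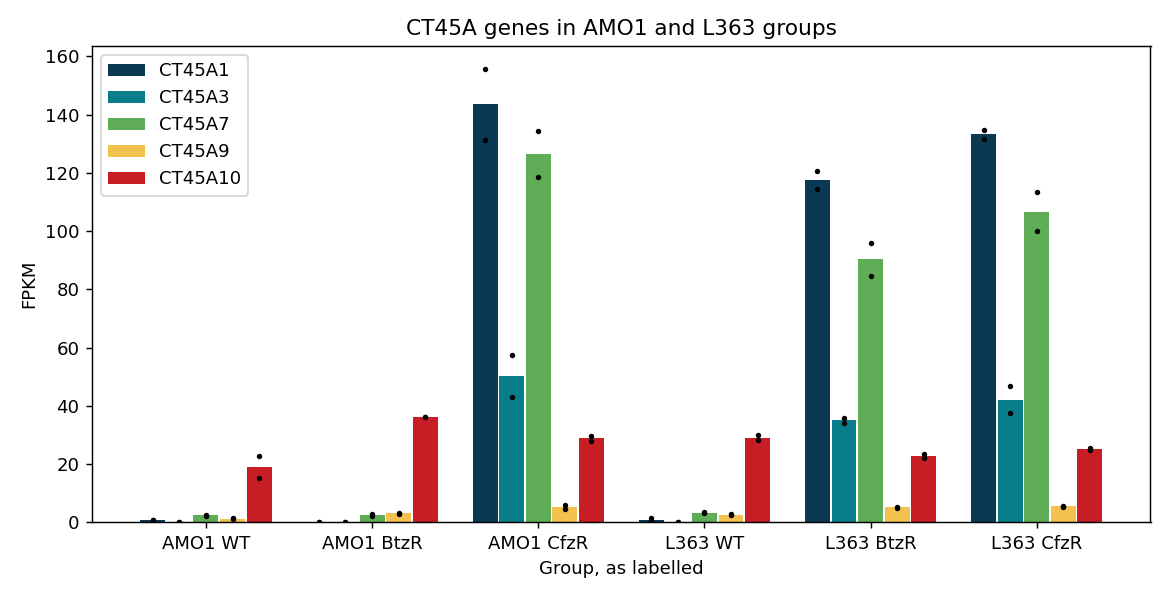
Bars give the mean FPKM of 5 CT45A genes in the AMO1 and L363 groups, and black points the 2 libraries. CT45A1, CT45A3 and CT45A7 stand at 34.03 to 155.8 FPKM in L363 BtzR, L363 CfzR and the libraries labelled AMO1 CfzR and at 3.49 FPKM or less in both WT groups and AMO1 BtzR, while CT45A10 stays between 15.22 and 36.18 FPKM.

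Reads can pass between these copies too, since 73.7% of the 100-base windows of CT45A1, 87.1% of CT45A3, 95.0% of CT45A7 and 63.45% of CT45A10 occur in another member. Summed over CT45A1, CT45A3 and CT45A7, the level was 4.62 and 3.79 FPKM in L363 WT, 250.5 and 235 FPKM in L363 BtzR and 292 and 272 FPKM in L363 CfzR, so the gain does not rest on how reads were dealt out among the 3. RefSeq windows were found for CT45A1, CT45A7 and CT45A10. The 250 bases before the start are shown to compare the 2 genes that gained with the one that was already on, with CG in capitals. CT45A1 is on the plus strand at chrX:135713389-135713638, and CT45A7 and CT45A10 are on the minus strand at chrX:135837080-135837329 and chrX:135893445-135893694, the latter being the upstream of its 2 listed starts:
CT45A1: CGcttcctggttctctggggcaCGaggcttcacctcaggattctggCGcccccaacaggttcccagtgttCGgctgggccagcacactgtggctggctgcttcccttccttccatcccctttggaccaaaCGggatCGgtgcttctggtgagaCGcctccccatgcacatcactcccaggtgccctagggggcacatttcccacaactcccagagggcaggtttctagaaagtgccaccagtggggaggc
CT45A7: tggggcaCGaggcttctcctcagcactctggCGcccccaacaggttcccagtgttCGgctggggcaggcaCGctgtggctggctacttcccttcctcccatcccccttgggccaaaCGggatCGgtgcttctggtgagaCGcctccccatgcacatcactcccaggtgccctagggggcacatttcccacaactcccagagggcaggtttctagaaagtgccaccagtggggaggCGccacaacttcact
CT45A10: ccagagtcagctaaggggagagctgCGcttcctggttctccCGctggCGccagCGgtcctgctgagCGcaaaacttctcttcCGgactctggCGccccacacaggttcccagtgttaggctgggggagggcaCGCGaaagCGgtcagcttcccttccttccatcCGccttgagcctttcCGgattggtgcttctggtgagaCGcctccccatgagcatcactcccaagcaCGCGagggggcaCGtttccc
The CT45A10 stretch holds 16 CG, that of CT45A1 holds 7 and that of CT45A7 holds 8. The full windows of CT45A1 and CT45A7 share 235 of 286 bases when placed without gaps, 82.2%, and those of CT45A1 and CT45A10 share 162 of 252, 64.3%. CCGGAA occurs 2 times in the CT45A10 stretch and not in the other 2, and GGGCGG is in none of the 3. The other CT45A10 start, downstream of the one shown, has 9 CG and no CCGGAA in its full window, beside 18 CG for the full window of the start shown, so this contrast too depends on the start. These are matches of letters only. Over all members with a window (64 genes, 80 windows), the median number of CG in the 300 bases was 12.5, beside 14 for all windows, and 6.25% of member windows held CCGGAA and 22.5% held GGGCGG.

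Genes next to the CT45A array did not rise with it in L363. SAGE1, the cancer-testis gene that follows the array, was at 6.85 and 6.18 FPKM in L363 WT, 9.35 and 9.56 FPKM in BtzR cells and 6.78 and 8.15 FPKM in CfzR cells (log2-fold changes 0.48 and 0.17, not called). INTS6L, which precedes it, was at 12.7 and 12.2 FPKM in WT cells and at 5.6 to 6.87 FPKM in the 4 resistant libraries. All 10 genes tested before the array had log2-fold changes below 0 in both L363 BtzR and L363 CfzR, with medians of -0.69 and -0.88. So had 8 of the 10 after it, with medians of -0.71 and -0.53. The latter 10 are also the genes before the MAGEC genes described above. Before the array 2 genes were called lower in L363 CfzR and 0 in L363 BtzR, and after it 0 in either. In the libraries labelled AMO1 CfzR, against L363 WT, the medians were -0.84 before and -0.73 after the array. There 3 genes before it and 0 after it were called lower. In AMO1 BtzR the same genes had medians of -0.04 and 0.16. A lower level of this stretch of the X chromosome thus went with the gain of CT45A in the same libraries, and its part in the gain was not tested. Among all 435 X-linked genes tested that are not members, these neighbors included, 4 rose and 24 fell in L363 BtzR. In L363 CfzR 4 rose and 21 fell. Calls in both directions made up 6.44% and 5.75% of the 435. Over all genes, higher and lower calls made up 1.02% and 1.05% in L363 BtzR and 1.11% and 0.825% in L363 CfzR.

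The libraries labelled AMO1 CfzR carried the same CT45A pattern. CT45A1 was at 156 and 131 FPKM, CT45A3 at 43.1 and 57.5 FPKM and CT45A7 at 118 and 134 FPKM in them, with CT45A10 at 27.9 and 29.7 FPKM. Against AMO1 WT, 26 members were called, 14 lower and 12 higher, beside 9.21% and 7.88% of all genes. Against L363 WT, 11 were called, 2 lower and 9 higher, beside 0.802% and 0.856%. Of the 23 members tested whose WT means differ by at least 1 (log2) between AMO1 and L363, 19 were nearer L363 WT in these libraries, as were 11 in AMO1 BtzR and 19 in L363 BtzR. GAGE12B was at 0 and 0.19 FPKM, against 953.59 FPKM or more in both AMO1 WT libraries. Drug resistance and line of origin cannot be told apart in the comparison with AMO1 WT. XAGE1A and XAGE1B, copies with identical values in all 20 libraries, were higher here than in any other group, at 39.6 and 46.4 FPKM, against 0 and 0.19 FPKM in L363 WT and 5.01 and 4.96 FPKM in AMO1 WT. MAGEC1 at 28.8 and 29.6 FPKM and MAGEB2 at 2.32 and 1.86 FPKM were lower than in L363 WT (log2-fold changes -1.35 ± 0.09 and -1.79 ± 0.08, adjusted p = 1.10e-07 and 1.95e-09), as they were in L363 BtzR.

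XAGE1A and XAGE1B changed in opposite directions in different lines. In AMO1 they went from 5.01 and 4.96 FPKM in WT cells to 0.06 and 0.18 FPKM in BtzR cells, 41.5-fold lower (adjusted p = 1.99e-09). In RPMI-8226 they fell from 5.22 and 4.4 FPKM to 0 FPKM in both libraries (adjusted p = 3.77e-10). In L363 they rose from 0 and 0.19 FPKM to 4.25 and 2.92 FPKM in BtzR cells and 1.98 and 2.03 FPKM in CfzR cells (log2-fold changes 2.06 ± 0.13 and 1.46 ± 0.13, adjusted p = 5.25e-08 and 2.41e-06). The 2 rows stand for a single measurement, since both genes share their whole window and their values.

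The SSX genes, repressors of transcription that become fused to SS18 in synovial sarcoma, show how calls can follow the split between copies. In AMO1 BtzR SSX2 was called higher, from 5.33 and 2.27 FPKM to 19.7 and 39.8 FPKM (2.67 ± 0.26, adjusted p = 1.26e-06). Its copy SSX2B went from 79.5 and 72.0 FPKM to 62.9 and 44.2 FPKM in the same libraries. All 100-base windows of SSX2 occur in SSX2B. Summed, SSX2 and SSX2B were at 84.8 and 74.2 FPKM in WT cells and 82.6 and 84.0 FPKM in BtzR cells, and these groups overlap. Likewise SSX4 was called lower in AMO1 BtzR from 5.2 and 0 FPKM to 0 in both libraries (-1.32 ± 0.50, adjusted p = 0.0387), while the other AMO1 WT library listed 3.9 FPKM for SSX4B, and the summed pair went from 5.2 and 3.9 FPKM to 2.9 and 2.65 FPKM. The gain in L363 BtzR is not of this kind, since the sum of SSX4 and SSX4B was 0.21 and 0.05 FPKM in WT cells and 4.42 and 4.09 FPKM in BtzR cells, all of it listed under SSX4B (log2-fold change 2.22 ± 0.44, adjusted p = 0.00377). In L363 CfzR the pair was at 0.58 and 0.42 FPKM. SSX2 and SSX2B were at 0.48 FPKM or less in every library outside AMO1 WT and AMO1 BtzR. MAGEA2 and MAGEA2B traded values in the same manner without a call in L363. MAGEA2 was at 13.3 and 2.25 FPKM and MAGEA2B at 1.4 and 12.01 FPKM in the 2 L363 CfzR libraries, where their sum was 14.7 and 14.3 FPKM, against 14.8 and 14.9 FPKM in L363 WT.

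CTAG1A and CTAG1B, the 2 copies that encode NY-ESO-1, split in the same way. In RPMI-8226 WT one library gave 9.5 FPKM to CTAG1A and 0 to CTAG1B, and the other gave 0 and 10.3 FPKM, while both copies were listed at 0 in both BtzR libraries. Both were called lower (adjusted p = 0.0372 and 0.0401), and either call was lost when the library that listed its reads was left out, with a log2-fold change of 0 then. In all, the call of CTAG1A was lost under 5 alternative settings and that of CTAG1B under 12. The summed pair went from 9.5 and 10.3 FPKM to 0 in both. In L363 CfzR CTAG1A was called higher, from 0 to 4.09 and 3.15 FPKM (SE of the log2-fold change 0.64, adjusted p = 0.0485), but CTAG1B was at 1.08 and 1.43 FPKM in WT cells and at 0 in CfzR cells, so that the sum went from 1.08 and 1.43 FPKM to 4.09 and 3.15 FPKM. That call was lost under 22 alternative settings (limma, adjusted p = 0.0507 to 0.233). CTAG2, which has 24.5% of its windows in common with another member, was the highest member in 5 groups. It was at 128 and 148 FPKM in AMO1 WT, at 204 and 217 FPKM in AMO1 BtzR, at 143 FPKM in both L363 WT libraries, at 195 and 166 FPKM in L363 BtzR and at 167 and 160.0 FPKM in L363 CfzR, with log2-fold changes of 0.60, 0.33 and 0.19 that are under the threshold.

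**Figure D5:**
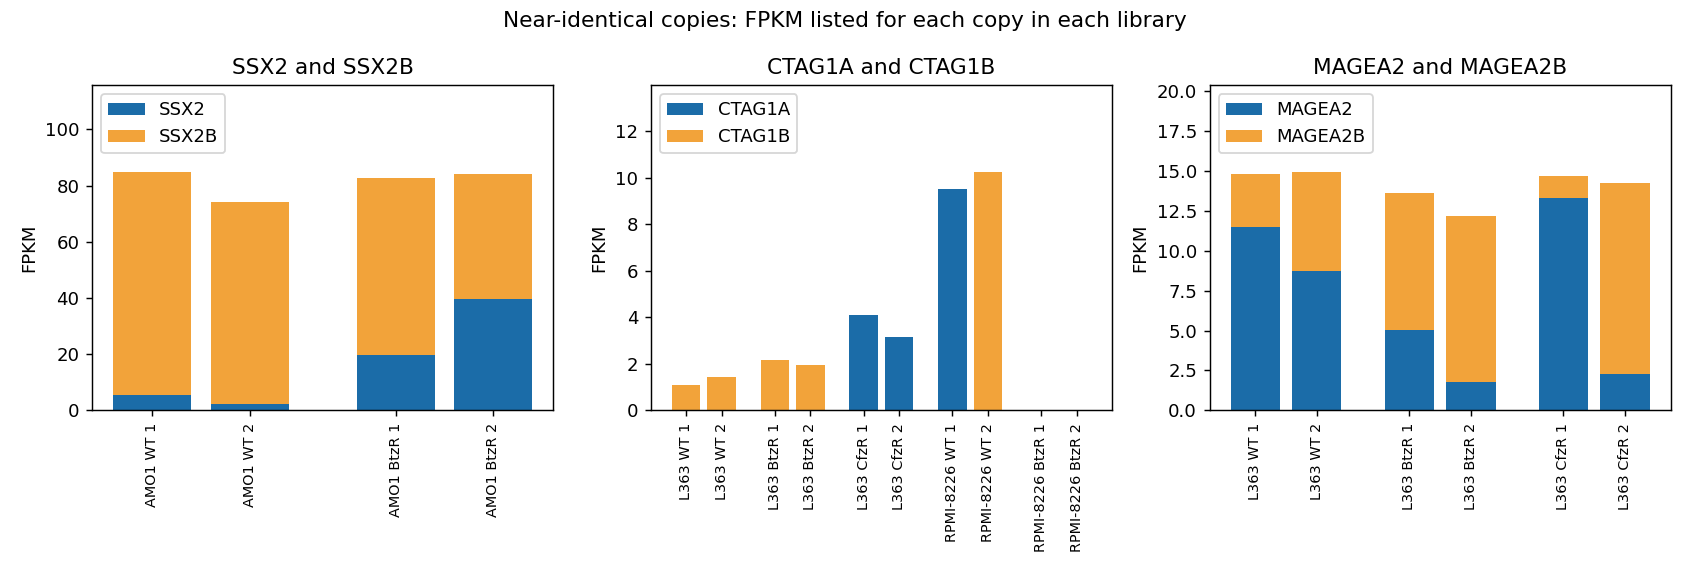
Bars stack the FPKM listed for 2 near-identical copies in each library (blue SSX2, CTAG1A or MAGEA2, orange SSX2B, CTAG1B or MAGEA2B). The stacked height of SSX2 and SSX2B stays between 74.23 and 84.83 FPKM in AMO1 WT and BtzR while the blue part grows, and the CTAG1A and CTAG1B bars switch color between the 2 RPMI-8226 WT libraries.

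The SPANX genes, which encode proteins of the sperm nucleus, reached 1 FPKM in ARH-77 alone. SPANXB1 was at 14.5 and 25.1 FPKM in ARH-77 WT and at 4.67 and 6.41 FPKM in ARH-77 BtzR, 3.57-fold lower (-1.63 ± 0.17, adjusted p = 1.59e-05). In the other lines it was at 0.24 FPKM or less. The SE and p are pooled with these groups near 0 and do not measure the spread within ARH-77. SPANXC was at 2.66 and 6.96 FPKM in WT cells and at 1.87 and 2.69 FPKM in BtzR cells, and its log2-fold change of -0.73 ± 0.23 was not called, with groups that overlap. Without WT replicate 1 the log2-fold changes of SPANXB1 and SPANXC were -2.01 and -1.29. SPANXA1 (-1.54) and SPANXD (-1.24), not tested in the main fit, then passed the filter through the remaining WT library. They had to be high in that library, so their lower level in BtzR cells is no separate evidence. PAGE5 was at 5.41 and 3.77 FPKM in RPMI-8226 WT and, where the label was AMO1 CfzR, 5.52 and 3.95 FPKM, and at 1.4 FPKM or less elsewhere.

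The difference between BtzR and WT cells was not the same in all 4 lines for 39 of the 45 members (moderated F test of the interaction, adjusted p under 0.05), beside 71.1% of all genes. GAGE2D, which was lost in AMO1 and at 0 elsewhere, led them (F = 2135, adjusted p = 2.2e-15), followed by GAGE12C and GAGE12E (1757, adjusted p = 4.9e-15), GAGE2C (1197, adjusted p = 3e-14) and PAGE1 (735, adjusted p = 4.85e-13), which were lost in RPMI-8226. All 5 reached 1 FPKM in the WT cells of 1 line only, passed the filter through that group and had no room to fall in the other lines, so a difference between lines was fixed beforehand and these F values are a description. The GAGE values are also those of single copies, which are uncertain.

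Genes related by function were counted against the same shares of all genes. Of 11 ubiquitous MAGE genes, which share the MAGE domain but are read in many tissues, 10 were listed and 6 tested. MAGED1, an adaptor in neurotrophin receptor signaling, fell in AMO1 BtzR from 99.6 and 110.4 FPKM to 17.6 and 17.8 FPKM (-2.50 ± 0.08, adjusted p = 8.71e-12) and in RPMI-8226 BtzR from 2.63 and 2.89 FPKM to 0 and 0.02 FPKM (-1.90 ± 0.08, adjusted p = 4.09e-11). NSMCE3, a subunit of the SMC5/6 complex, rose in ARH-77 BtzR from 18.8 and 21.1 FPKM to 42.2 and 43.2 FPKM (1.06 ± 0.09, adjusted p = 2.05e-06). These were the only calls among the 6 in BtzR cells, and none was called in L363. Over all genes, lower calls made up 4.57% in AMO1 BtzR and 7.92% in RPMI-8226 BtzR, and higher calls 0.955% in ARH-77 BtzR. The 7 ligase partners and targets of MAGE proteins held no call in any comparison of BtzR or L363 CfzR cells with WT cells. TRIM28, the partner of MAGEA3 and MAGEA6, was at 108 to 268 FPKM in the WT, BtzR and L363 CfzR libraries, also where both MAGEA genes were near 0.

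Of 27 genes of DNA methylation and chromatin silencing, 26 were tested. TET1, which oxidizes methylcytosine, fell in AMO1 BtzR from 3.24 and 4.8 FPKM to 1.09 and 1.13 FPKM (-1.23 ± 0.14, adjusted p = 6.50e-06). In RPMI-8226 BtzR the DNA methyltransferase DNMT3B rose from 2.27 and 2.81 FPKM to 5.97 and 6.91 FPKM (1.07 ± 0.17, adjusted p = 7.84e-05) and TET2 from 1.33 and 1.54 FPKM to 3.99 and 4.35 FPKM (1.09 ± 0.10, adjusted p = 2.38e-07). Thus 1 of the 26 fell in AMO1 BtzR, beside 4.57% of all genes tested, and 2 of the 26 rose in RPMI-8226 BtzR, beside 5.91%. Counts this small set the list little apart from all genes. None was called in L363 BtzR, L363 CfzR or ARH-77 BtzR. The median log2-fold change of the 26 was -0.13 in AMO1 BtzR and 0.26 in RPMI-8226 BtzR. Whether these levels have a part in the changes of cancer-testis genes was not tested.

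Cancer-testis genes of other families, 31 of 56 tested, are set beside the shares of all genes called given above. In L363 BtzR and in L363 CfzR, which share their WT libraries, 3 rose and 1 fell, the latter being VCX2 in BtzR cells and CT55 in CfzR cells. PRAME, an antigen targeted by T cell therapy, rose from 0.72 and 0.73 FPKM to 29.1 and 29.8 FPKM in BtzR cells and 33.8 and 41.7 FPKM in CfzR cells (log2-fold changes 4.14 ± 0.13 and 4.48 ± 0.13, adjusted p = 2.36e-11 and 1.05e-11). GTSF1, of the piRNA pathway, rose from 4.07 and 4.29 FPKM to 12.5 and 16.7 FPKM and to 27.1 and 27.0 FPKM, and PASD1 from 6.31 and 4.58 FPKM to 20.8 and 22.5 FPKM and to 21.7 and 19.3 FPKM. In AMO1 BtzR 1 rose and 1 fell. PRAME went from 30.3 and 33.7 FPKM to 83.8 and 65.9 FPKM (1.19 ± 0.13, adjusted p = 3.36e-06), and LIN28B, which blocks let-7 processing, from 5.36 and 6.49 FPKM to 0 in both libraries (-2.79 ± 0.09, adjusted p = 1.39e-11). In RPMI-8226 BtzR 1 rose and 4 fell, led by ACTL8, an actin-like gene, which went from 449.7 and 366 FPKM to 5.68 and 10.6 FPKM (-5.53 ± 0.22, adjusted p = 1.66e-11). None was called in ARH-77 BtzR. Markers of plasma cells and B cells moved in the same comparisons. In RPMI-8226 BtzR 4 of 10 plasma cell and 3 of 10 B cell markers fell, beside 7.92% of all genes, with plasma cell sums of 1249 and 1212 FPKM in WT cells and 915 and 852 FPKM in BtzR cells and B cell sums of 32.3 and 31.5 FPKM and 14.7 and 6.02 FPKM. In AMO1 BtzR 2 of 10 plasma cell markers and 1 B cell marker fell, beside 4.57% of all genes, with plasma cell sums of 4183 and 3861 FPKM in WT cells and 2290 and 2552 FPKM in BtzR cells. In L363 BtzR 1 B cell marker rose, and in ARH-77 BtzR 1 plasma cell marker fell. Their part in the changes of cancer-testis transcripts was not tested.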

How the data were processed

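RNA was extracted from 20 cultures of the lines ARH-77, AMO1, RPMI-8226 and L363 (10 groups, 2 biological replicates each), and per the study libraries were made and sequenced on the BGISEQ-500. The FPKM values were deposited by the authors as 1 table of 18305 genes. The submitters' processing notes name HISAT2 2.0.4, Bowtie2 2.2.5 and RSEM 1.2.12, and the genome build is not given in the sources used here. All value columns were used (0 left out). FPKM keeps no read totals, so depth is unknown and no counting intervals are given, and reads of near-identical copies may be divided among them by the estimate.

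Groups came from the sample labels. The 13089 genes whose mean reached 1 FPKM in any group were fitted on log2(FPKM + 1) with limma 3.58.1 in R 4.3.3, with a mean-variance trend, over all 20 libraries (10 residual degrees of freedom). P-values were adjusted over all genes tested (Benjamini-Hochberg). The code was tested on simulated data. The members and gene lists (ubiquitous MAGE genes, MAGE ligase partners and targets, DNA methylation and silencing, other cancer-testis genes, plasma cell, B cell and germ cell markers) were chosen with earlier results of these data known. Named members were a list of well-known antigens, the 10 called members with the largest change per comparison, the highest member per family and the 5 members with the largest F between lines. CT45A9, SSX2B, SSX4B, MAGEA9, MAGEA9B, SPANXC, GAGE12G, GAGE12I, GAGE2A and neighboring genes were named, where the rule did not take them, after their values were seen. Start-site windows are from RefSeq GRCh38.p14 (64 members matched, 80 windows). Shared 100-base windows were counted in GENCODE transcripts of 88 members, and 50-base windows are given for MAGEA3. Alternatives were a pseudocount of 0.1 FPKM, a filter of 5 FPKM or none, rescaling as TPM, quantile normalization, no variance trend, a replicate block, leaving out each library and fitting just the groups compared. Leaving out the libraries labelled AMO1 CfzR and counting identical members once were added after seeing the data.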

Additional observations from a re-analysis of the deposited data

Results flagged for a closer look

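For 39 members the change from WT to BtzR cells was not the same in the 4 lines (moderated F test in limma, which tests the difference itself), beside 71.1% of all 13089 genes tested. The 5 with the largest F were GAGE2D (adjusted p = 2.2e-15), GAGE12C and GAGE12E (adjusted p = 4.9e-15 for each, from identical values), GAGE2C (adjusted p = 3e-14) and PAGE1 (adjusted p = 4.85e-13). All 5 reached 1 FPKM in the WT cells of 1 line only, so a difference between lines was fixed beforehand, and the GAGE values are those of single copies, which are uncertain. GAGE2D was lost in AMO1 BtzR and the other 4 in RPMI-8226 BtzR. No group had the 4 samples that a check for a sample far from the others needs.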

How the results depend on the processing

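Leaving out each library in turn gave 15 to 19 called members in AMO1 BtzR, 24 to 27 in the libraries labelled AMO1 CfzR against AMO1 WT, 11 to 12 against L363 WT, 8 in L363 BtzR, 6 to 8 in L363 CfzR, 19 to 22 in RPMI-8226 BtzR, 2 to 5 in ARH-77 BtzR, 38 to 42 between lines and 40 to 44 between WT lines. The other settings gave 15 to 21, 23 to 28, 10 to 12, 7 to 9, 5 to 9, 18 to 26, 2 to 4, 35 to 50 and 36 to 57 in the same order. A group left with 1 library is assumed to vary like the others. Without ARH-77 WT replicate 1, SPANXA1 and SPANXD entered only by passing the filter through the remaining WT library. The count in ARH-77 BtzR moved from 2 to 4 with a pseudocount of 0.1 FPKM, which added CT45A7 and SSX1, and to 5 without ARH-77 WT replicate 1. With the replicate number as a block the counts were 17, 26, 11, 8, 7, 21, 2, 39 and 42 in that order, as without it. The samples share only a number (correlation of deviations -0.0055 to 0.245). Of 2450 recomputed changes of named members, 2395 kept their call, 55 lost it and 0 reversed. The losses were in CTAG1A in L363 CfzR, CTAG1A and CTAG1B in RPMI-8226 BtzR, GAGE12G in AMO1 BtzR, SSX4 in AMO1 BtzR and in the libraries labelled AMO1 CfzR, and MAGEA9B in L363 CfzR. The cause was not tested. Rescaling as TPM moved family sums by factors of 0.966 to 1.04.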
